A study of Mus musculus with 23 samples.

Results

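The 10 genes described here encode proteins of innate defence at epithelial surfaces: Lcn2, Ltf and Trf, which bind iron or its carriers, the recognition and surface proteins Cd14, C3, Fcgbp and Lgals3, the protease inhibitors of the whey acidic protein (WAP) type Slpi and Wfdc2, and the defensin Defb1. They were chosen by name, with earlier results of the same data known, and all 10 were found among the 23985 symbols listed in all 3 tables of the series. Most are secreted, whereas Cd14 is anchored in the membrane and is also shed. Levels are RPKM, reads normalised for the length of a gene and the size of a library, as the authors deposited them, and differences are on the scale of log2(RPKM + 1). Changes of genes near 0 come out smaller on it than they are.

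Gene expression was measured by SmartSeq2 RNA sequencing in 23 libraries, each from about 2000 sorted cells of the mouse mammary gland or its tumours. From normal C57BL6J mice came luminal progenitors, mature luminal cells and basal cells of adult glands, and the fetal mammary stem cell fraction (fMaSC) of embryonic day 18, with 2 libraries each. PY230, a mouse mammary tumour cell line of the C57BL6J strain, was transplanted into syngeneic mice, and its tumours gave basal SOX10 high, luminal SOX10 high and luminal SOX10 low cells, with 2 libraries each. Spontaneous tumours of FVB mice with the C3-1-TAg transgene, in which the promoter of the prostate gene C3(1), unrelated to complement C3, drives SV40 T antigen, were sampled as SOX10 high cells with 5 libraries and SOX10 low cells with 4, and the titles name all of them basal. Libraries within a group are biological replicates in the words of the design text, but nothing in the labels links them to single animals or tumours, and the gates of the sort are not stated either. If libraries of a group shared an animal, the p-values would measure only the spread between these libraries. Each of the 3 sets has a table of its own, and no level is compared between tables. All of these are bulk libraries, in which fewer cells of a type and less RNA per cell cannot be told apart.

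In milk and mucosal fluids, iron-binding proteins withhold iron from bacteria, complement and pattern receptors mark or sense microbes, and WAP-type inhibitors and defensins limit proteases and damage membranes. Luminal progenitors are the precursors of the milk-secreting alveolar cells and are known for expressing several of these genes even in the gland of a virgin animal. Basal cells form the contractile outer layer, mature luminal cells are the hormone-sensing inner layer, and fMaSC are cells of the gland before birth. Sox10 is a transcription factor of neural crest and of immature mammary cells, and it names the tumour fractions.

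Lcn2 and Slpi were higher in luminal SOX10 high than in luminal SOX10 low PY230 cells, and Wfdc2 and Lgals3 were lower. C3 did not pass the test, nor did Wfdc2 and Lgals3 after quantile normalization. The sequences just before the start of the genes are shown for these members, whose PY230 results differ most in kind. Each is the 250 bases before the annotated start in RefSeq, read 5′ to 3′ along the gene, from the GRCm38.p6 build, whereas the authors aligned to mm9. RefSeq promoters were matched by symbol for 7 of the 10 members. Capitals mark matches to short motifs on either strand. They were TTNCNNAA for C/EBP type, ACAANG for SOX type, GGGANNNTC for kappaB type and TTCNNNGAA for STAT type sites.

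The promoters of Lcn2 at chr2:32387740-32387989 (minus strand), Slpi at chr2:164356508-164356757 (minus strand), Wfdc2 at chr2:164562465-164562714 (plus strand), Lgals3 at chr14:47373610-47373859 (plus strand) and C3 at chr17:57228137-57228386 (minus strand) read:
Lcn2: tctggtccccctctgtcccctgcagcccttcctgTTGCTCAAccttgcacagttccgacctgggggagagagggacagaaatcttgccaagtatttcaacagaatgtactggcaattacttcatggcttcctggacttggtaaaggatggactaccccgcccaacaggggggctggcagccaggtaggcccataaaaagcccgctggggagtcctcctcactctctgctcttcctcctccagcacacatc
Slpi: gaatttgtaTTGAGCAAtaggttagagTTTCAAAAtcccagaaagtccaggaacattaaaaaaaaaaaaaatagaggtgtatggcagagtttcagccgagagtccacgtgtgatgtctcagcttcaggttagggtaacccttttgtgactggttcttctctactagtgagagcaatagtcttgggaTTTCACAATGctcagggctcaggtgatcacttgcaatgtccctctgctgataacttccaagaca
Wfdc2: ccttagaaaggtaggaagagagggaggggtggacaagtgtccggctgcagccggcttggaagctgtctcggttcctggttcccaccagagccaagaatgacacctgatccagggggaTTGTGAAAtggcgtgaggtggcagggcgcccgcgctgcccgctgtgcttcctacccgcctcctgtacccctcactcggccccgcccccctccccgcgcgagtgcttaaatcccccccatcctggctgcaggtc
Lgals3: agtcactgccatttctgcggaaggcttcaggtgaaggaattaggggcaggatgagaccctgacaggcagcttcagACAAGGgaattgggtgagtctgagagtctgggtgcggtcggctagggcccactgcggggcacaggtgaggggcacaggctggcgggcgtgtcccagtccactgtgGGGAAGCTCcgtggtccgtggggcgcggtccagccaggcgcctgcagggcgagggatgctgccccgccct
C3: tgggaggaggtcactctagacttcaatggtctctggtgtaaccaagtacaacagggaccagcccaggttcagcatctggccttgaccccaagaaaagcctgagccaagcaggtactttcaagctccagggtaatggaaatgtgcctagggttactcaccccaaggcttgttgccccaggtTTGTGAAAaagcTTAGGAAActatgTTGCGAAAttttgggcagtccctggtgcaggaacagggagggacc

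C/EBP-type letters stood in 5 of the 7 promoters, against 36.8% of the 32851 mouse promoters searched. Lcn2 and Wfdc2 held 1 match each, Ltf held 2 and Slpi held 3, and those of C3 also numbered 3 and lay within 70 bases of its start. The SOX-type letters stood in 2 of the 7, against 36.3% of all promoters, and the match in Slpi overlaps its C/EBP-type match nearest to the start. Lgals3 alone of the 7 held the kappaB-type letters, found in 12.2% of all promoters, and none held the STAT-type letters, found in 7.02%. The 2 promoters with SOX-type letters were those of Slpi and Lgals3, and the part of these letters in the PY230 results was not tested. A match describes letters in this window and is not a binding site.

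Luminal progenitors held the highest levels of Lcn2, Ltf, Trf, Cd14 and Fcgbp among the normal populations, mature luminal cells the highest Wfdc2 and Lgals3, and basal cells the highest Slpi. In luminal progenitors all 10 genes lay above fMaSC, with no overlap between libraries. These levels in the normal populations are among the values with which the genes were chosen, so they are given without a test. The 10 genes together made up 2.76% and 4.75% of the summed RPKM in luminal progenitors, 1.87% and 1.77% in the mature luminal population, 0.602% and 0.459% in basal cells and 0.568% and 0.538% in fMaSC.

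Lcn2, lipocalin 2, binds bacterial siderophores and so keeps iron from bacteria. It was at 11786 and 22699 RPKM in luminal progenitors, 187 and 298 RPKM in mature luminal cells, 1262 and 1030 RPKM in basal cells, and 3160 and 2945 RPKM in fMaSC. The order was luminal progenitors, fMaSC, basal and mature luminal cells, with no overlap between neighbours. In the luminal progenitor libraries Lcn2 had the second highest RPKM of all genes in both, after the nuclear RNA Malat1. It was the member with the highest level in fMaSC, where it ranked 8 and 7 among all genes.

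Ltf encodes lactoferrin, the iron-binding protein of milk and of neutrophil granules. Its level was 47.0 and 43.2 RPKM in luminal progenitors, 8.77 and 11.1 RPKM in mature luminal cells, 4.72 and 5.02 RPKM in basal cells, and 0.43 and 0.18 RPKM in fMaSC, in that order and with no overlap. Trf encodes transferrin, the iron carrier of plasma, which the mammary epithelium also secretes. It was at 270 and 205 RPKM in luminal progenitors, 0.89 and 1.72 RPKM in mature luminal cells, 35.0 and 41.9 RPKM in basal cells, and 15.05 and 16.7 RPKM in fMaSC. All 3 iron-related members therefore had their highest level in luminal progenitors, but the population with the lowest level was mature luminal for Lcn2 and Trf and fMaSC for Ltf.

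Cd14, the co-receptor that hands lipopolysaccharide to Toll-like receptor 4, followed the order of Ltf. It was at 299 and 307 RPKM in luminal progenitors, 34.2 and 31.0 RPKM in mature luminal cells, 14.3 and 9.74 RPKM in basal cells, and 3.32 and 2.40 RPKM in fMaSC. Cd14 is also a monocyte and macrophage gene. The sum of 14 immune markers was 3.08 and 2.47 RPKM in luminal progenitors, the lowest of the normal populations. Of these, the myeloid markers Tyrobp, Itgam, Adgre1, Mpo, Elane and Ngp were listed at 0 in both luminal progenitor libraries. Others were above 0, the highest being Cd52 at 1.07 and 0.702 RPKM, Cd79a at 0.848 and 0.563 RPKM and the myeloid gene Csf1r at 0.633 and 0.670 RPKM. The part of immune cells in the level of Cd14 was not tested.

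Complement C3, the central protein of the complement cascade, was at 252 and 386 RPKM in luminal progenitors, 3.94 and 16.2 RPKM in mature luminal cells, 188 and 286 RPKM in basal cells, and 16.2 and 10.3 RPKM in fMaSC. Luminal progenitors and basal cells overlapped at the high level, and mature luminal cells and fMaSC overlapped at the low level. Fcgbp, a mucus protein named for binding the Fc part of immunoglobulin G in humans, was at 305 and 435 RPKM in luminal progenitors, 13.3 and 29.3 RPKM in mature luminal cells, 8.10 and 20.0 RPKM in basal cells, and 0 and 0.085 RPKM in fMaSC. Mature luminal and basal cells overlapped for Fcgbp. In the reference annotation a pseudogene overlaps Fcgbp and a microRNA gene overlaps each of C3 and Slpi, and the libraries do not mark strand, so reads of these overlaps cannot be told apart.

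Lgals3, the galactoside-binding lectin galectin-3, was at 1599 and 3147 RPKM in luminal progenitors, 5027 and 4719 RPKM in mature luminal cells, 510 and 261 RPKM in basal cells, and 5.58 and 9.94 RPKM in fMaSC. The order was mature luminal cells, luminal progenitors, basal cells and fMaSC, and no neighbours overlapped. Wfdc2, a secreted WAP-type protein known as HE4 in humans, was at 348 and 356 RPKM in luminal progenitors, 4972 and 5553 RPKM in mature luminal cells, 582 and 264 RPKM in basal cells, and 77.3 and 67.2 RPKM in fMaSC. Luminal progenitors and basal cells overlapped. Wfdc2 ranked 11 and 7 and Lgals3 ranked 10 in both of the mature luminal libraries among all genes.

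Slpi, the secretory leukocyte protease inhibitor, which blocks neutrophil elastase, alone among the 10 had its highest mean level in basal cells. It was at 55.7 and 102 RPKM in luminal progenitors, 2.35 and 4.45 RPKM in mature luminal cells, 396 and 392 RPKM in basal cells, and 3.11 and 2.37 RPKM in fMaSC. Basal cells lay above luminal progenitors, and mature luminal cells and fMaSC overlapped. Defb1, a beta-defensin of epithelia, was at 69.0 and 18.1 RPKM in luminal progenitors, 806 and 60.6 RPKM in mature luminal cells, 215 and 47.9 RPKM in basal cells, and was listed at 0 in both fMaSC libraries. For Defb1 the first replicate was the higher in each adult population, and mature luminal cells overlapped basal cells, which overlapped luminal progenitors.

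**Figure D1:**
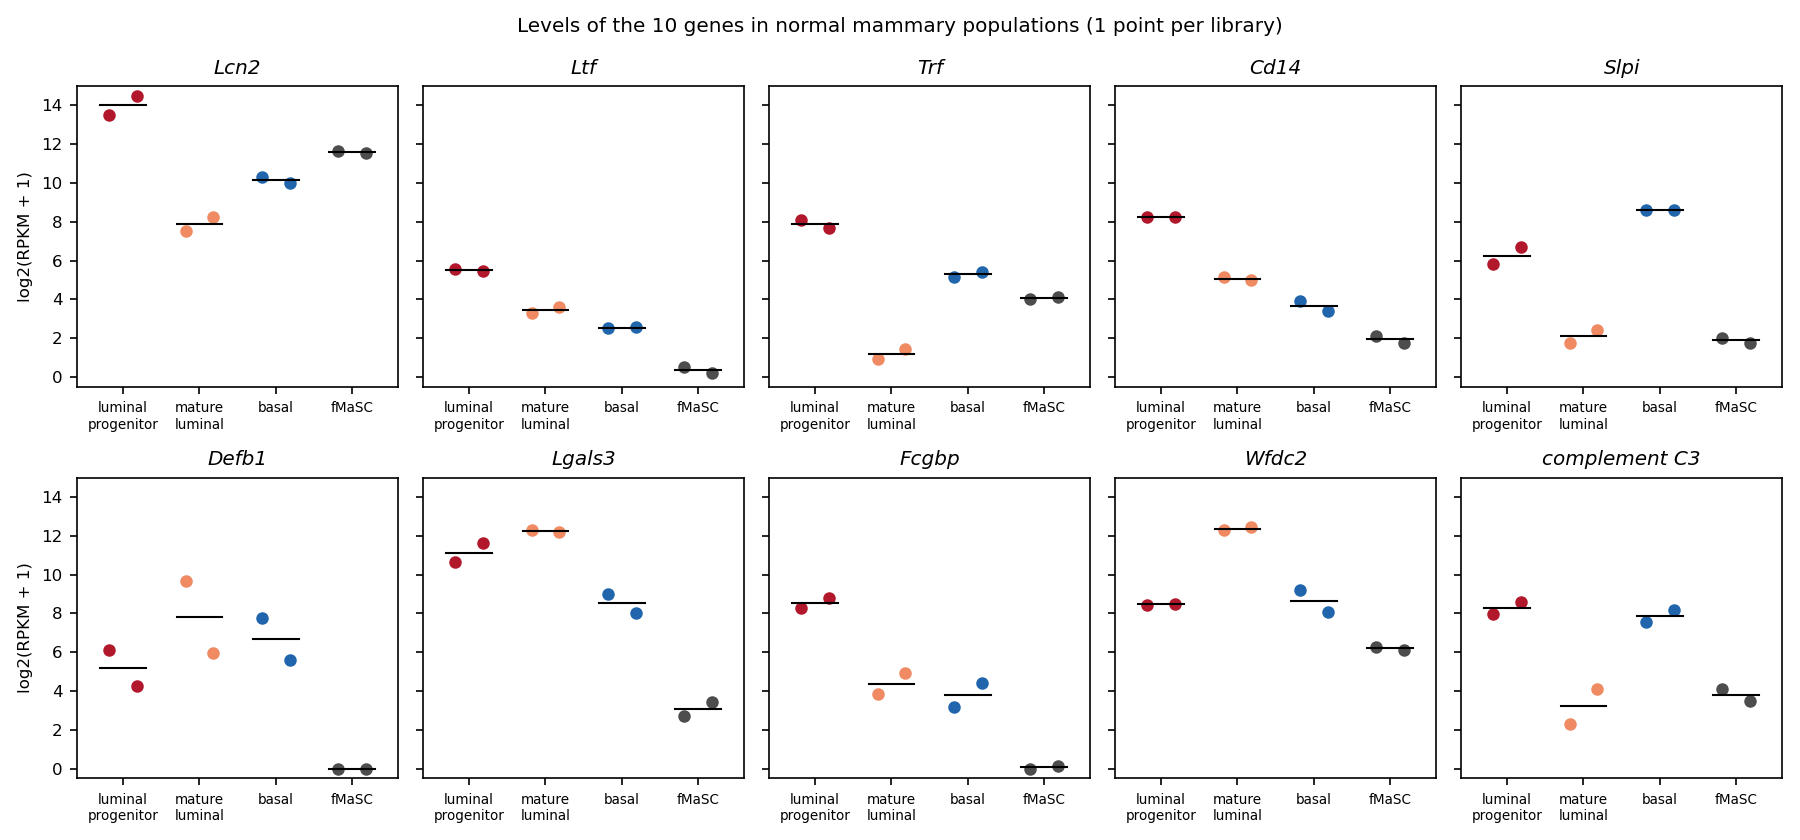
Level of each of the 10 genes in the normal populations on the scale of log2(RPKM + 1), with 1 point per library and a bar at the mean of the 2 libraries of a population. Luminal progenitors are highest for Lcn2, Ltf, Trf, Cd14 and Fcgbp, mature luminal cells for Wfdc2 and Lgals3, and basal cells for Slpi, and Defb1 differs widely between the 2 libraries of each adult population.

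Counted over the 10 genes, libraries did not overlap for 10 above and 0 below in luminal progenitors against fMaSC, where the shares of all 12553 genes tested were 27.7% above and 55.1% below. In basal cells against fMaSC 9 were above and 1, Lcn2, was below (32.4% and 47.2% of all genes). In mature luminal cells against fMaSC 6 were above and 2, Lcn2 and Trf, below (25.7% and 59.8%). Luminal progenitors lay above mature luminal cells for 7 genes and below for 2, Lgals3 and Wfdc2 (36.0% and 30.3%), and above basal cells for 6 and below for 1, Slpi (27.9% and 35.1%). Mature luminal cells lay above basal cells for 4 genes, Ltf, Cd14, Lgals3 and Wfdc2, and below for 4, Lcn2, Trf, Slpi and C3 (31.2% and 40.0%). Since the rule used these contrasts, nothing is read from the counts or from the medians that follow. The median difference of the 10 genes was 4.82 in luminal progenitors against fMaSC, where the median of all genes was -0.40, and 3.66 in luminal progenitors against mature luminal cells, where it was 0.04. The medians of all genes were -0.53 in mature luminal cells and -0.28 in basal cells against fMaSC.

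Genes of the same pathways that are not members were tested with limma on all genes, with Benjamini-Hochberg adjustment and a threshold of 0.05 on the adjusted p. The lists cover iron handling, antimicrobial and WAP-domain proteins, mucosal surface proteins and galectins, complement, and lipopolysaccharide (LPS) sensing with NF-kappaB signalling. They were chosen with earlier results of these data known, so their calls in every table may not be independent of that choice. They hold 112 genes, of which 83 passed the filter on low values in the normal table. In luminal progenitors against fMaSC 30 were higher and 14 lower, or 53% of those tested, where 50.6% of all genes were called (41 higher and 11 lower after quantile normalization). In luminal progenitors against mature luminal cells 26 were higher and 6 lower (22.1% of all genes called), and without luminal progenitor replicate 1, mature luminal replicate 1 or mature luminal replicate 2 the called genes numbered 19, 18 and 18. Against basal cells 21 were higher and 11 lower (35.5% of all genes called). With all libraries, the called genes were 38.6% of those tested both against mature luminal and against basal cells. Over all genes, the calls after quantile normalization numbered 3142 higher and 3089 lower in luminal progenitors against fMaSC. Without quantile normalization no share of all genes by direction is given for the normal populations. Nothing is therefore read from these splits, or from those of the single lists below.

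Among iron handling genes, all 6 called of 18 tested were higher in luminal progenitors than in mature luminal cells. Ceruloplasmin (Cp), the copper ferroxidase that readies iron for transferrin, was at 313 ± 138 RPKM in luminal progenitors against 14.5 ± 6.9 RPKM in mature luminal cells (SD, n = 2 each; log2 difference 4.34, limma adjusted p = 0.00105). Haem oxygenase Hmox1 was at 320 ± 98 against 60.5 ± 14 RPKM (2.37, limma adjusted p = 0.0368). Against basal cells 1 iron handling gene was called, the ferritin receptor Ncoa4, lower in luminal progenitors at 10.1 ± 1.3 against 22.6 ± 1.4 RPKM (-1.09, limma adjusted p = 0.00571).

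Among antimicrobial and WAP-domain genes, Wfdc18 was at 3600 ± 2057 RPKM in luminal progenitors against 183 ± 67.9 RPKM in mature luminal cells (4.21, limma adjusted p = 0.00465) and 124 ± 97 RPKM in basal cells (4.98, limma adjusted p = 0.00153). The calgranulin subunit S100a8 was at 12.7 ± 2.4 RPKM in luminal progenitors against 0.519 ± 0.20 RPKM in mature luminal cells (3.17, limma adjusted p = 0.00768). The secreted lectin Reg3g went the other way, at 2.65 ± 1.0 against 16.2 ± 6.2 RPKM (-2.22, limma adjusted p = 0.00525). Of the 12 tested, 4 were higher and 1 was lower in luminal progenitors than in mature luminal cells.

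Of the 11 mucosal genes tested 5 were higher and 2 lower in luminal progenitors than in mature luminal cells, led by the mucins Muc15, Muc1 and Muc4. Muc1 was at 33.3 ± 3.0 against 3.03 ± 1.0 RPKM (3.11, limma adjusted p = 6.08e-04). Of the 16 complement genes tested 4 were higher and 1 lower, and those with the largest rises restrain the cascade on the cell surface: Cd55 was at 104 ± 24 against 17.3 ± 4.1 RPKM (2.52, limma adjusted p = 0.00147) and Cd59a at 31.0 ± 9.4 against 4.52 ± 0.83 RPKM (2.51, limma adjusted p = 0.00472). The lower gene was Hc, complement C5, at 0.820 ± 0.054 against 7.23 ± 1.4 RPKM (-2.17, limma adjusted p = 0.00384). Of the 26 LPS and NF-kappaB genes 7 were higher and 2 lower, with Cebpd, a C/EBP transcription factor, at 462 ± 350 against 31.4 ± 2.3 RPKM (3.59, limma adjusted p = 0.00621) and the lipopeptide receptor Tlr2 at 11.3 ± 0.96 against 1.34 ± 0.47 RPKM (2.40, limma adjusted p = 0.00194).

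In basal cells against fMaSC 28 of the 83 genes were higher and 16 lower, or 53% of those tested, where 60.3% of all genes were called (35 and 10 after quantile normalization). The complement genes C4b and C1s1 were among the higher, C4b at 30.1 ± 11 RPKM in basal cells against 0.0194 ± 0.027 RPKM in fMaSC (4.88, limma adjusted p = 8.2e-05) and C1s1 at 42.6 ± 9.0 against 1.24 ± 0.16 RPKM (4.27, limma adjusted p = 1.43e-04). Without fMaSC replicate 1 the called genes numbered 25, and without fMaSC replicate 2 they numbered 24. In mature luminal cells against fMaSC 19 were higher and 20 lower, or 47% of those tested, where 56.4% of all genes were called (32 and 17 after quantile normalization). In mature luminal against basal cells 14 were higher and 24 lower, where 48.6% of all genes were called (19 and 20 after quantile normalization), and without mature luminal replicate 1 the called genes numbered 23. Cp, C4b and Tlr2 were among the lower, Tlr2 at 1.34 ± 0.47 RPKM in mature luminal cells against 39.8 ± 13 RPKM in basal cells (-4.10, limma adjusted p = 8.69e-05). With all libraries, the genes called between mature luminal and basal cells were 45.8% of those tested. Over all genes, the calls after quantile normalization numbered 3809 higher and 3718 lower in basal cells against fMaSC. They numbered 3246 and 3346 in mature luminal cells against fMaSC, and 3389 and 2964 in mature luminal against basal cells.

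The labels of the normal populations were checked against their markers. Luminal progenitor markers summed to 3712 and 4333 RPKM in luminal progenitors, to at most 106 RPKM in the other adult libraries and to 986 and 997 RPKM in fMaSC. Mature luminal markers summed to 4878 and 5022 RPKM in mature luminal cells, against 592 to 789 RPKM in luminal progenitors, 815 to 1034 RPKM in basal cells and 66.4 to 68.7 RPKM in fMaSC. Basal markers summed to between 831 and 1849 RPKM in basal cells, 766.5 to 767.5 RPKM in fMaSC and at most 17.9 RPKM in the luminal populations. The 4 luminal keratins also summed to between 977 and 2185 RPKM in basal cells and 1267 to 1283 RPKM in fMaSC. The fMaSC markers summed to between 307 and 312 RPKM in fMaSC and to at most 12.85 RPKM in the adult populations. In C3-1-TAg libraries basal markers summed to between 96.6 and 1010 RPKM. Krt14 made up most of each sum, at 89.7 RPKM in the lowest and 1007 RPKM in the highest. Krt5 and Trp63 were at 64.9 and 31.9 RPKM in SOX10 high replicate 2. In SOX10 low replicate 3 they were at 18.98 and 16.4 RPKM. In the other libraries Krt5 was at most at 5.7 RPKM and Trp63 at most at 2.47 RPKM. The contractile markers were also low. Acta2 was at most at 6.04 RPKM in SOX10 high and 10.5 RPKM in SOX10 low libraries, and Myh11 at most at 0.371 and 0.800 RPKM. Sox10 separated the tumour fractions as named, at 66.9 to 101 RPKM in PY230 SOX10 high and 11.01 to 13.6 RPKM in SOX10 low libraries, and at 91.9 to 164 RPKM in C3-1-TAg SOX10 high and 2.10 to 40.9 RPKM in SOX10 low libraries.

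In PY230 tumours the members split by fraction. Lcn2, Trf, Cd14 and Slpi were higher in luminal SOX10 high than in luminal SOX10 low cells, and Lgals3, Wfdc2 and Fcgbp were lower. Of the 10 members 9 passed the filter of 1 RPKM in 2 libraries, 7 were called, and 22.6% of all 13136 genes were called, 12.6% as higher and 10.0% as lower. After quantile normalization 4 were higher and 1 was lower. Without the filter on low values, and likewise without either basal SOX10 high library, the called members numbered 4, and without either luminal SOX10 low library they numbered 3. The 9 members had a median difference of 0.22, against 0.01 for all genes. Because the members were chosen with earlier results of these data known, their calls in every PY230 comparison may not be independent of that choice.

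Markers of the epithelial cell types moved with the same fractions. The 5 luminal progenitor markers summed to between 748 and 1757 RPKM in luminal SOX10 high against 104 to 120 RPKM in luminal SOX10 low cells. Csn3 made up most of the sums in luminal SOX10 high cells, at 1443 and 567 RPKM. Elf5, Kit and Lalba were also higher in luminal SOX10 high than in luminal SOX10 low cells. Aldh1a3 went the other way, at 3.26 and 7.09 RPKM in luminal SOX10 high against 12.9 and 9.93 RPKM in luminal SOX10 low cells. The 5 mature luminal markers summed to between 332 and 590 RPKM in luminal SOX10 high against 1271 to 1672 RPKM in luminal SOX10 low cells, and the 4 luminal keratins to between 3186 and 4822 against 9377 to 9959 RPKM. In basal SOX10 high cells these sums were 75.1 to 101 RPKM for luminal progenitor markers, 44.9 to 74.0 RPKM for mature luminal markers and 277 to 501 RPKM for luminal keratins, and the 7 basal markers summed to between 2425 and 2805 RPKM, against 72.9 to 92.8 RPKM in luminal SOX10 high and 29.2 to 52.9 RPKM in luminal SOX10 low cells. The part of these markers in the differences of the members was not tested.

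Lcn2 was at 5255 and 2508 RPKM in luminal SOX10 high against 248 and 304 RPKM in luminal SOX10 low cells, and it had the highest RPKM of all genes in both luminal SOX10 high libraries. The log2 difference was 3.72 ± 0.41 (SE; limma adjusted p = 0.00406). Basal SOX10 high cells were between the luminal fractions at 1614 and 973 RPKM. Trf followed the same order, at 1479 and 659 RPKM in luminal SOX10 high against 57.4 and 66.6 RPKM in luminal SOX10 low cells, a difference of 3.98 ± 0.45 (SE; limma adjusted p = 0.00424). It was at 494 and 248 RPKM in basal SOX10 high cells. For both genes luminal SOX10 high replicate 1 lay above replicate 2, and the fractions did not overlap.

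Ltf, the third iron-related member, differed from Lcn2 and Trf. It was at 14.2 and 9.98 RPKM in luminal SOX10 high against 14.2 and 23.3 RPKM in luminal SOX10 low cells, which overlapped (-0.57 ± 0.26, SE; limma adjusted p = 0.158). In basal SOX10 high cells it was at 2.21 and 2.08 RPKM, lower than in luminal SOX10 high (-2.04 ± 0.26; limma adjusted p = 0.00138) and luminal SOX10 low cells (-2.61 ± 0.26; limma adjusted p = 2.83e-04).

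Cd14 was at 189 and 119 RPKM in luminal SOX10 high against 41.6 and 31.8 RPKM in luminal SOX10 low cells, a difference of 2.02 ± 0.24 (SE; limma adjusted p = 0.00515). Basal SOX10 high cells were at 19.9 and 23.3 RPKM, the lowest of the 3 fractions. The sum of the 14 immune markers was 31.3 and 42.1 RPKM in luminal SOX10 high, against 20.3 and 13.8 RPKM in luminal SOX10 low cells, and its part in the difference of Cd14 was not tested. In basal SOX10 high cells this sum was 27.2 and 39.7 RPKM, and Cd14 was lower than in luminal SOX10 high cells by a difference of -2.75 ± 0.24 (limma adjusted p = 3.25e-04). Against luminal SOX10 low cells the difference was -0.73 ± 0.24 (limma adjusted p = 0.0398), and it did not pass after quantile normalization (-0.53, limma adjusted p = 0.0682) or without any 1 of the libraries of either fraction.

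Slpi had its highest level in basal SOX10 high cells, as among the normal populations in basal cells. It was at 197 and 146 RPKM in basal SOX10 high, 101 and 47.7 RPKM in luminal SOX10 high and 17.8 and 17.8 RPKM in luminal SOX10 low cells, and the fractions did not overlap. The difference was 1.28 ± 0.33 for basal against luminal SOX10 high cells (SE; limma adjusted p = 0.0222), which did not pass without basal SOX10 high replicate 1 (1.06, limma adjusted p = 0.128) or replicate 2 (1.49, limma adjusted p = 0.0549) or without the filter (limma adjusted p = 0.0505). It was 3.18 ± 0.33 for basal SOX10 high against luminal SOX10 low cells (limma adjusted p = 3.57e-04). Between luminal SOX10 high and low it was 1.90 ± 0.33 (limma adjusted p = 0.0143), and it did not pass without luminal SOX10 low replicate 1 (adjusted p = 0.0524, limma) or replicate 2 (adjusted p = 0.0659, limma).

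Lgals3 and Wfdc2 ran the opposite way, highest in luminal SOX10 low and lowest in basal SOX10 high cells. Lgals3 was at 50.5 and 57.1 RPKM in basal SOX10 high, 149 and 315 RPKM in luminal SOX10 high, and 665 and 546 RPKM in luminal SOX10 low cells. Wfdc2 was at 86.0 and 136 RPKM in basal SOX10 high, 225 and 596 RPKM in luminal SOX10 high, and 1376 and 1081 RPKM in luminal SOX10 low cells. No fractions overlapped for either gene, and luminal SOX10 high replicate 2 lay nearer the SOX10 low libraries than replicate 1 did. The difference between luminal SOX10 high and low was -1.47 ± 0.33 for Lgals3 (SE; limma adjusted p = 0.0267) and -1.73 ± 0.46 for Wfdc2 (limma adjusted p = 0.0397). After quantile normalization these were -1.16 (limma adjusted p = 0.0708) and -1.37 (limma adjusted p = 0.119) and did not pass. Lgals3 did not pass without luminal SOX10 low replicate 1 (limma adjusted p = 0.111) or replicate 2 (limma adjusted p = 0.0906), nor did Wfdc2 without the same replicate 1 (limma adjusted p = 0.146) or replicate 2 (limma adjusted p = 0.113). Without luminal SOX10 high replicate 1 the difference of Wfdc2 was -1.03 (limma adjusted p = 0.107). In basal SOX10 high against luminal SOX10 low cells they were larger, at -3.46 ± 0.33 for Lgals3 (limma adjusted p = 2.51e-04) and -3.48 ± 0.46 for Wfdc2 (limma adjusted p = 9.07e-04).

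The remaining members were low in PY230 cells. Fcgbp was at 0.665 and 0.521 RPKM in basal SOX10 high, 1.22 and 2.87 RPKM in luminal SOX10 high, and 6.05 and 4.17 RPKM in luminal SOX10 low cells. It fell in luminal SOX10 high against luminal SOX10 low cells by 1.04 on the log2 scale (limma adjusted p = 0.0473), but with a pseudocount of 0.1 RPKM the adjusted p was 0.0672 (limma), and with a block for the replicate number it was 0.0616 (limma). Without luminal SOX10 high replicate 1 the difference was -0.64 (limma adjusted p = 0.166), and without luminal SOX10 low replicate 1 or 2 the adjusted p was 0.208 or 0.103 (limma). C3 was between 4.87 and 6.51 RPKM in all 6 libraries, and no comparison of it passed (differences between -0.19 and 0.22; limma adjusted p = 0.306, 0.325 and 0.867). Defb1 stayed under the filter, with 0.167 to 3.36 RPKM.

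**Figure D2:**
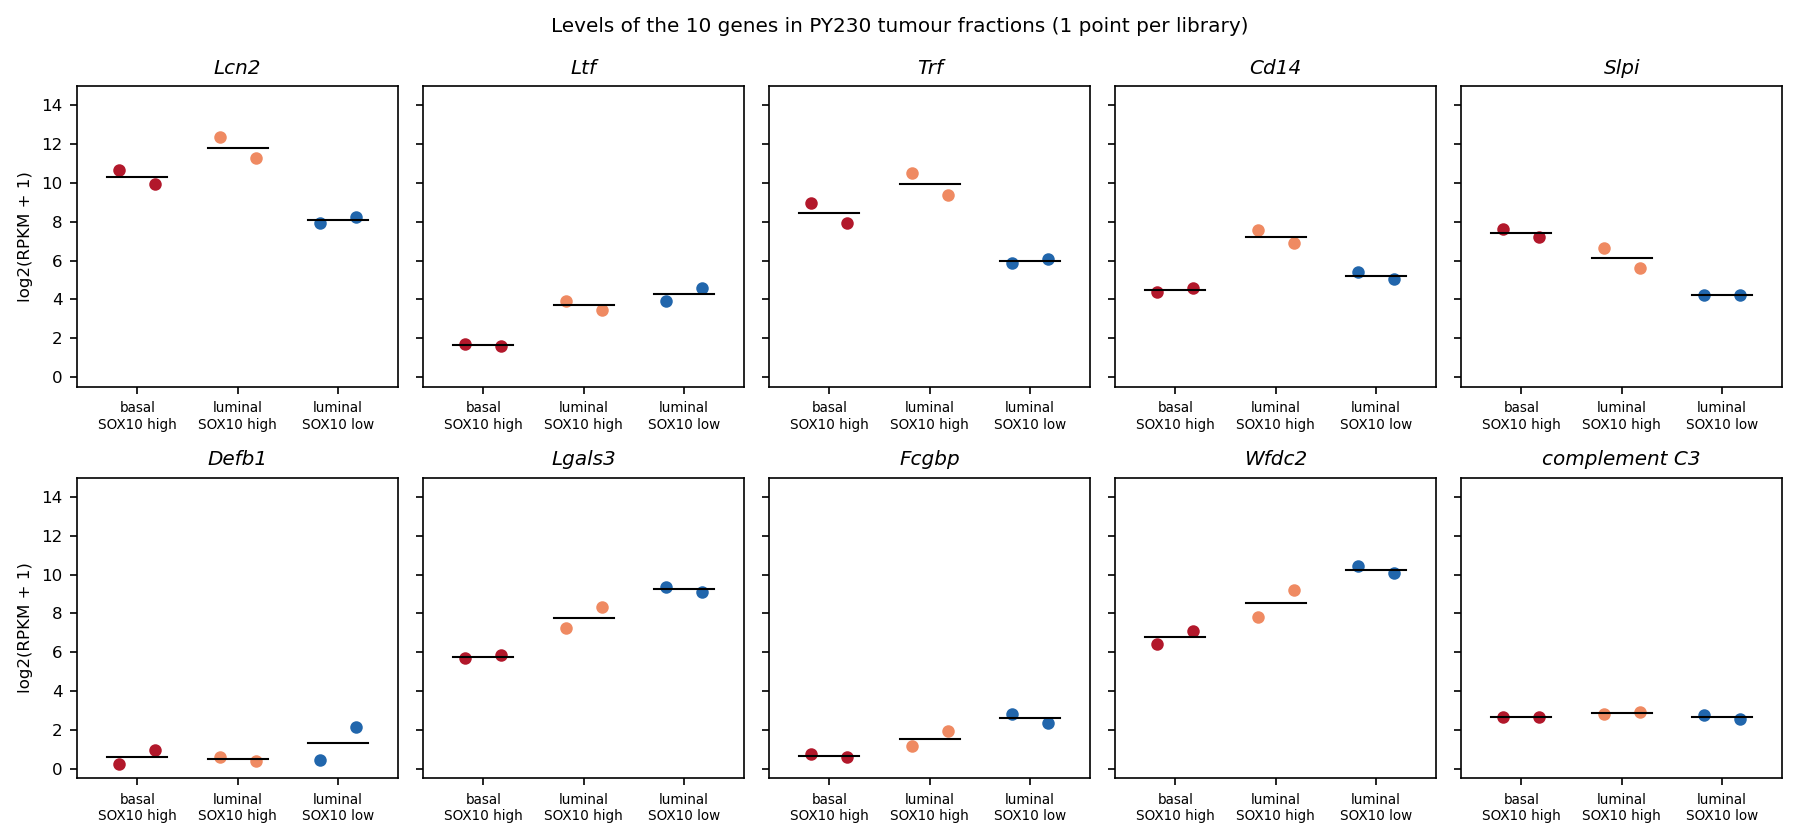
Level of each of the 10 genes in the 3 PY230 tumour fractions on the scale of log2(RPKM + 1), with 1 point per library and a bar at the mean of 2 libraries. Lcn2 and Trf peak in luminal SOX10 high cells, Slpi in basal SOX10 high cells, and Lgals3 and Wfdc2 in luminal SOX10 low cells, while C3 is level.

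Against luminal SOX10 high cells, basal SOX10 high cells were higher in Slpi and lower in Lcn2, Ltf, Trf, Cd14, Lgals3 and Wfdc2, so that 7 members were called, where 42.0% of all genes were, 13.8% as higher and 28.2% as lower. The difference was -1.53 ± 0.41 for Lcn2 (SE; limma adjusted p = 0.0238), -1.49 ± 0.45 for Trf (limma adjusted p = 0.0350), -2.0 ± 0.33 for Lgals3 (limma adjusted p = 0.00409) and -1.75 ± 0.46 for Wfdc2 (limma adjusted p = 0.0221). Without the filter 3 members were called, Ltf, Cd14 and Lgals3, and without basal SOX10 high replicate 2 they also numbered 3. In that case the difference was -1.17 for Lcn2 (limma adjusted p = 0.127), -1.0 for Trf (limma adjusted p = 0.177) and -2.08 for Wfdc2 (limma adjusted p = 0.0506). Without basal SOX10 high replicate 1 that of Wfdc2 was -1.43 (limma adjusted p = 0.131). Without luminal SOX10 high replicate 1 the difference was -1.0 for Lcn2 (limma adjusted p = 0.0696) and -0.91 for Trf (limma adjusted p = 0.136). The 9 members had a median difference of -1.53, against -0.21 for all genes.

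Against luminal SOX10 low cells, basal SOX10 high cells were higher in Slpi, Trf and Lcn2 and lower in Ltf, Cd14, Lgals3, Fcgbp and Wfdc2. The 8 members called compare with 55.2% of all genes, 21.8% called higher and 33.4% lower. The difference was 2.48 ± 0.45 for Trf (SE; limma adjusted p = 0.00346), 2.19 ± 0.41 for Lcn2 (limma adjusted p = 0.00414) and -1.92 ± 0.30 for Fcgbp (limma adjusted p = 0.00175). The 9 members had a median difference of -0.73, against -0.16 for all genes. The 3 PY230 comparisons share libraries and are not independent of each other.

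**Figure D3:**
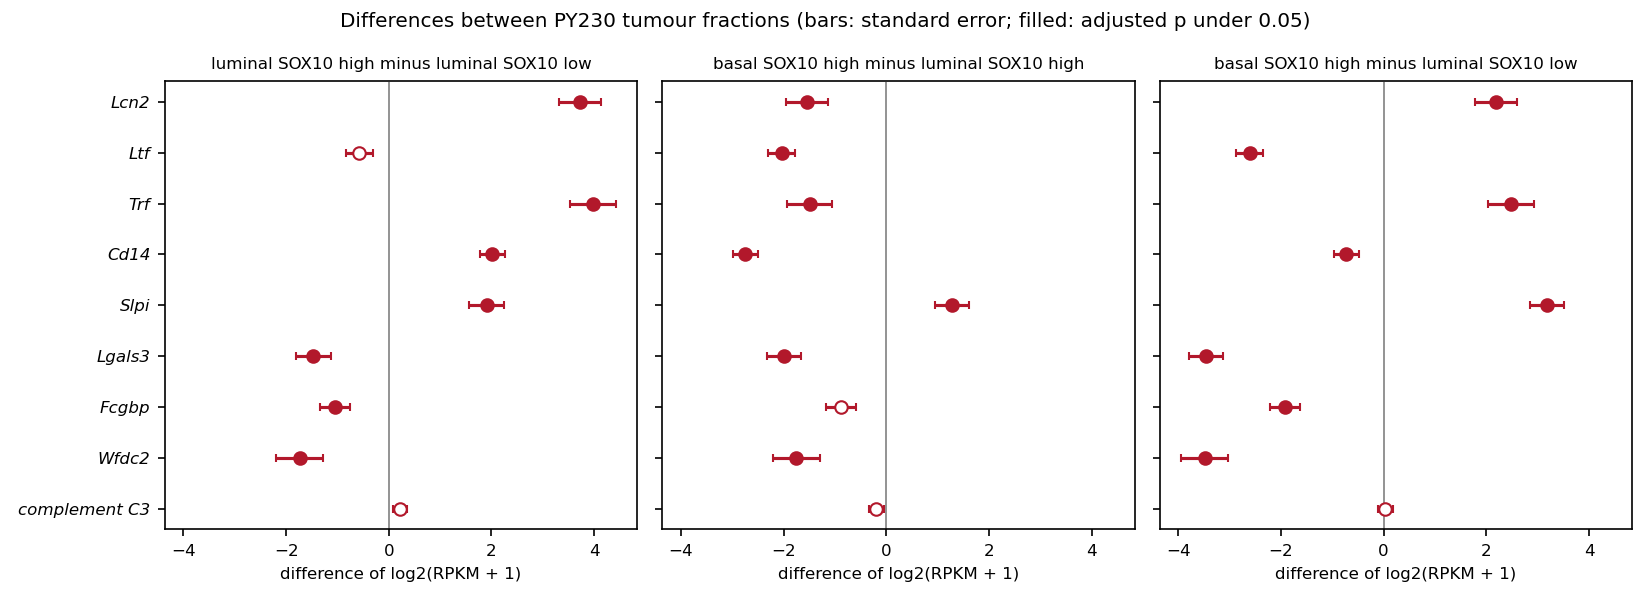
Difference between PY230 fractions on the scale of log2(RPKM + 1) for the 9 genes that passed the filter, as points with bars of the standard error from limma (2 libraries per fraction), filled where the adjusted p is under 0.05. Lcn2, Trf and Slpi are higher in both SOX10 high fractions than in luminal SOX10 low cells, Lgals3, Wfdc2 and Fcgbp are lower, and C3 lies near 0 in each panel.

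Of the 83 related genes tested in the PY230 table, 26 were higher and 6 lower in luminal SOX10 high than in luminal SOX10 low cells, or 38.6% of those tested, where 22.6% of all genes were called. Here, too, the lists were chosen with earlier results of these data known. The called genes numbered 21 without the filter, 16 without luminal SOX10 high replicate 1, and 20 and 15 without luminal SOX10 low replicates 1 and 2. All 6 iron handling genes called of 17 were higher, as were all 6 antimicrobial and WAP-domain genes called of 11 and all 5 mucosal genes called of 13. Slc39a14, a metal importer that takes up iron not bound to transferrin, was at 82.2 ± 29 RPKM in luminal SOX10 high against 14.2 ± 1.7 RPKM in luminal SOX10 low cells (SD, n = 2 each; log2 difference 2.41, limma adjusted p = 0.00431). Wfdc18 was at 1362 ± 150 against 142 ± 1.7 RPKM (3.25, limma adjusted p = 0.00123), and the polymeric immunoglobulin receptor Pigr, which carries antibody into milk, at 22.0 ± 5.2 against 2.15 ± 0.42 RPKM (2.85, limma adjusted p = 0.00156).

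Complement was mixed, with 6 higher and 3 lower of 16, and C4b at 11.8 ± 1.1 RPKM in luminal SOX10 high against 2.22 ± 0.32 RPKM in luminal SOX10 low cells (1.99, limma adjusted p = 0.00212). LPS and NF-kappaB genes counted 3 higher and 3 lower of 26. The higher included Lbp, the plasma protein that delivers lipopolysaccharide to Cd14, at 24.8 ± 8.2 against 1.79 ± 0.013 RPKM (3.17, limma adjusted p = 0.00254), and the transcription factor Cebpb at 161 ± 61 against 40.0 ± 6.5 RPKM (1.94, limma adjusted p = 0.00829). The interleukin-1 receptor Il1r1 was lower, at 4.41 ± 3.0 against 11.9 ± 1.6 RPKM (-1.37, limma adjusted p = 0.0434).

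In basal against luminal SOX10 high cells 9 of the 83 related genes were higher and 34 lower, or 51.8% of those tested, where 42.0% of all genes were called. Without basal SOX10 high replicate 1 the called genes numbered 28. Pigr was among the lower, at 1.33 ± 0.17 RPKM in basal against 22.0 ± 5.2 RPKM in luminal SOX10 high cells (-3.28, limma adjusted p = 1.01e-04), and 13 of 26 LPS and NF-kappaB genes were lower, led by the NF-kappaB cofactor Bcl3 at 8.11 ± 1.2 against 58.4 ± 7.6 RPKM (-2.71, limma adjusted p = 9.38e-05). The secreted ribonuclease Rnase4 was higher, at 104 ± 9.8 against 6.87 ± 1.9 RPKM (3.76, limma adjusted p = 7.93e-05), as was the galectin Lgals7 at 406 ± 12 against 50.4 ± 11 RPKM (3.0, limma adjusted p = 9.38e-05). In basal SOX10 high against luminal SOX10 low cells 27 were higher and 23 lower, or 60.2% of those tested, where 55.2% of all genes were called.

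In C3-1-TAg tumours no member was called between SOX10 high and SOX10 low cells, and for none of the 10 did the groups separate. limma called 5 of 11948 genes, or 0.0418%, and 1.06% of genes had groups that did not overlap. Of the 9 members that passed the filter of 1 RPKM in 4 libraries, 1, Wfdc2, had an unadjusted limma p under 0.05, and 1, again Wfdc2, had an exact permutation p under 0.05, which 3.12% of all genes reached.

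Wfdc2 was at 433, 212, 167, 152 and 112 RPKM in SOX10 high against 443, 679, 377 and 337 RPKM in SOX10 low libraries. Only SOX10 high replicate 1 lay within the range of the SOX10 low libraries. The difference was -1.20 ± 0.38 (SE) with p = 0.0317 in a two-sided exact permutation test and a limma adjusted p of 0.9997. Leaving out single libraries, the exact permutation p was 0.0286 without SOX10 high replicate 1, the smallest value possible with these numbers of libraries. It was between 0.0536 and 0.107 without any other library. Luminal SOX10 high PY230 cells were called lower in Wfdc2 than luminal SOX10 low cells in their own table, but not after quantile normalization (limma adjusted p = 0.119). The difference between the models was not tested.

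Lcn2 was at 2128, 282, 2888, 1440 and 2566 RPKM in SOX10 high against 726, 1289, 311 and 847 RPKM in SOX10 low libraries. In SOX10 high, 4 of 5 libraries lay above all SOX10 low libraries, and replicate 2 lay below them (1.04 ± 0.69, SE; exact permutation p = 0.238). Without SOX10 high replicate 2 the difference was 1.63 (exact permutation p = 0.0286, the smallest value possible with these numbers of libraries). Without any other library the exact permutation p was between 0.196 and 0.500. Trf was at 1744, 35.6, 721, 363 and 385 RPKM in SOX10 high against 287, 1006, 12.6 and 30.6 RPKM in SOX10 low libraries, which overlapped widely (1.79 ± 1.35; exact permutation p = 0.270). Ltf ranged most, at 544, 39.5, 374, 2.19 and 2.04 RPKM in SOX10 high against 6.39, 247, 5.67 and 4.10 RPKM in SOX10 low libraries (1.27 ± 1.78; exact permutation p = 0.603).

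Across genes, SOX10 high replicate 1 was most like SOX10 low replicate 2 (Pearson r = 0.979 on the log2 scale), and SOX10 high replicate 2 was most like SOX10 low replicate 3 (r = 0.967). The first of these pairs held the highest Trf values of each fraction and 2 of the 3 highest Ltf values, and the second held the lowest Lcn2 and Trf values of each fraction. Whether such libraries came from the same tumour is not stated in the labels. The limma and exact permutation tests treated the libraries as unpaired, so their p-values take no account of such pairs. The other members had exact permutation p-values of 0.913 for Cd14, 0.262 for Slpi, 0.817 for Lgals3, 0.151 for Fcgbp and 0.437 for C3.

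Slpi was at 508, 122, 218, 228 and 133 RPKM in SOX10 high against 202, 579, 236 and 417 RPKM in SOX10 low libraries. Lgals3 ran from 275 to 1279 RPKM in SOX10 high, with a median of 412 RPKM, and from 374 to 582 RPKM in SOX10 low libraries, with a median of 481 RPKM. C3 ran from 51.9 to 181 RPKM in SOX10 high and from 60.5 to 119 RPKM in SOX10 low libraries. These 3 genes were expressed in every library of both fractions at overlapping levels. Fcgbp was at 91.3, 5.97, 11.2, 5.70 and 3.40 RPKM in SOX10 high against 1.64, 8.05, 3.26 and 2.39 RPKM in SOX10 low libraries, and the highest value was that of SOX10 high replicate 1. Defb1 was at most 0.089 RPKM in SOX10 high and 1.26 RPKM in SOX10 low libraries and did not pass the filter.

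**Figure D4:**
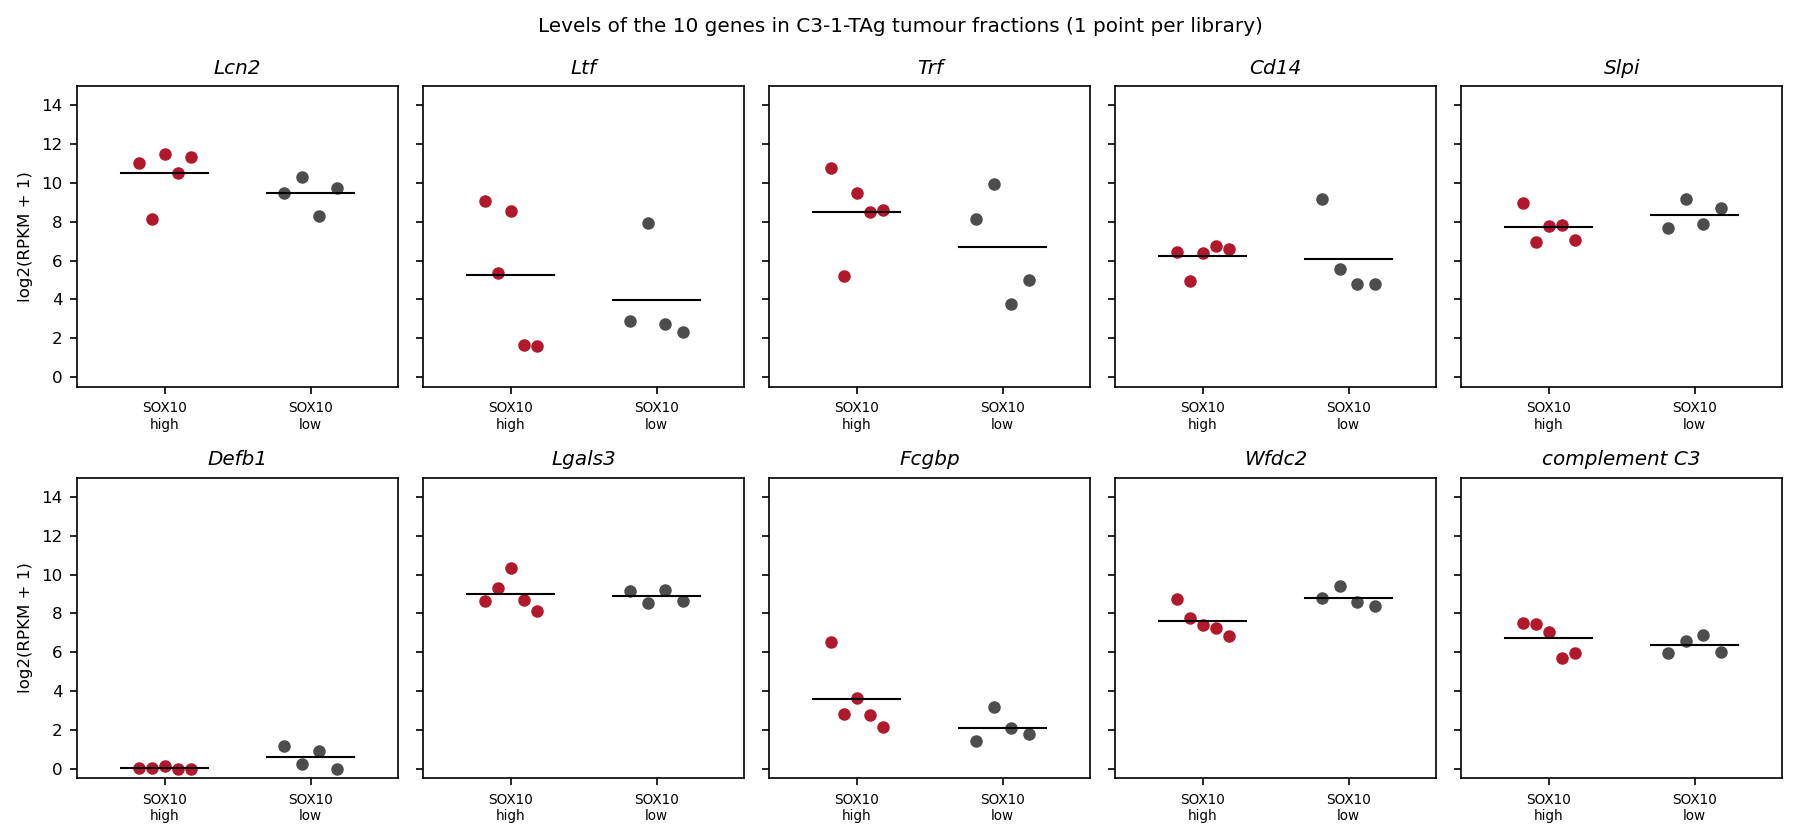
Level of each of the 10 genes in C3-1-TAg tumour cells on the scale of log2(RPKM + 1), with 1 point per library (5 SOX10 high, 4 SOX10 low) and a bar at the mean of each fraction. The fractions overlap for each gene, and Ltf and Trf spread most widely between libraries of the same fraction.

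Cd14 was at 85.8, 29.4, 82.1, 108 and 95.4 RPKM in SOX10 high against 588, 46.5, 26.6 and 26.7 RPKM in SOX10 low libraries. SOX10 low replicate 1 was far above all others, and it was also the library with the most immune RNA. Its 14 immune markers summed to 777 RPKM, against 4.38 to 38.3 RPKM in the SOX10 high and 9.09 to 37.2 RPKM in the other SOX10 low libraries. In that library Tyrobp, an adaptor of myeloid receptors, was at 246 RPKM and the pan-leukocyte gene Ptprc at 19.6 RPKM. The difference of Cd14 was 0.13 with all libraries and 1.17 without this library, and neither was called.

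**Figure D5:**
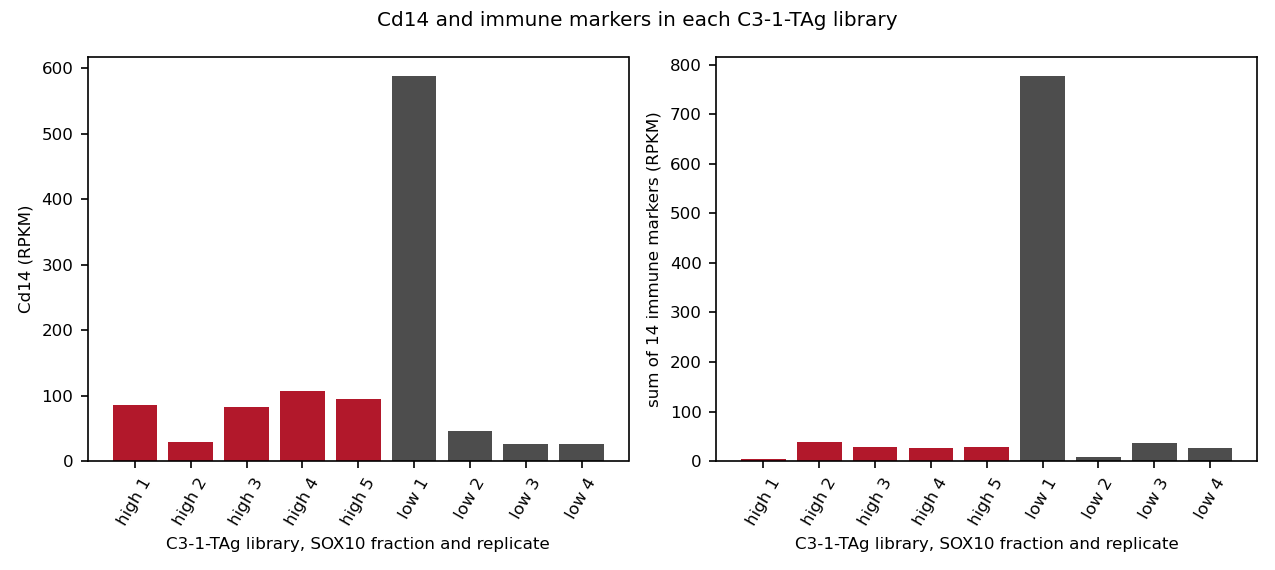
Cd14 (left) and the sum of 14 immune marker genes (right) in RPKM in each C3-1-TAg library, with 1 bar per library, SOX10 high before SOX10 low. SOX10 low replicate 1 stands apart in both, at 588 RPKM for Cd14 and 777 RPKM for the immune markers.

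Of the 77 related genes tested in the C3-1-TAg table, limma called 0 after adjustment. The unadjusted limma p was under 0.05 for 6, namely Steap3, Mfi2, Pglyrp1, Wfdc18, Muc15 and Cebpd, and the exact permutation p was under 0.05 for 6. The 9 members had a median difference of 0.38, against -0.04 for all genes.

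Over all 23 libraries, with each gene's log2 level centred within its table, the genes most like each member were sought among 6110 genes with a mean of at least 5 RPKM in every table. The libraries of a population are not independent points, and any batches are not stated in the labels, so these values are descriptions. Lgals3 was most like the luminal keratin Krt7 (Pearson r = 0.976) and the class I histocompatibility gene H2-Q4 (r = 0.965). Wfdc2 was most like Cd164 (r = 0.932) and Nupr1 (r = 0.929), and Lcn2 was most like the spermine oxidase gene Smox (r = 0.877) and Cited2 (r = 0.865). Slpi was most like Mir7678 (r = 0.988), which lies inside Slpi and shares its reads, and Errfi1 (r = 0.939), while C3 was most like Fads3 (r = 0.937) and Zfp36l2 (r = 0.883).

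Trf was most like the tubulin genes Tubb2b (r = 0.890) and Tubb2a (r = 0.863). Cd14 was most like Arrdc4 (r = 0.858) and Tnfaip2 (r = 0.857), and Ltf was most like Slc45a3 (r = 0.835) and Txnip (r = 0.816). Fcgbp was most like Tprn (r = 0.866) and Klf6 (r = 0.838), and Defb1 was most like Rab20 (r = 0.882) and Atg2a (r = 0.870). Defb1 was under the filter in both tumour tables, so its values of r rest mainly on the normal libraries. Among the members themselves the closest pair was Lcn2 and Trf (r = 0.866), followed by Slpi and C3 (r = 0.798), Lgals3 and Wfdc2 (r = 0.792) and Ltf and Fcgbp (r = 0.754). Lcn2 and Wfdc2 ran in opposite directions (r = -0.599).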

How the data were processed

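Per the submitters' processing notes, the authors used FastQC, HISAT2 2.0.5, StringTie 1.3.1c and the mm9 build. They deposited RPKM values in 3 tables; the annotation, the read totals and the filters behind them are not stated. Per the labels, about 2000 cells were taken per library, with 18 and then 10 PCR cycles and single-end reads of 50 or 75 bp, without strand or molecular identifiers. RPKM holds no depth, so the depth is unknown, no counting interval is given, and precision rests on the spread between libraries. The libraries had between 10056 and 12504 genes at 1 RPKM or more.

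Values above 0 all exceed 2 in the C3-1-TAg table, so 2 was taken off each of them. Symbols were matched ignoring case. limma 3.58.1 (R 4.3.3) was fitted to log2(RPKM + 1) of all groups of a table, with an intensity trend, two-sided tests, and Benjamini-Hochberg adjustment over all genes that reached 1 RPKM in 2 or more libraries (4 in the C3-1-TAg table), and the code was tested on simulated data. Single genes of the C3-1-TAg table also had an exact permutation test. Groups were taken from the sample titles. The members and lists were chosen with earlier results of these data known. The text names all members, up to 3 called genes with the largest differences per list and comparison, and the 2 genes most like each member. Chi3l1 of the lists was not found in the tables. Alternatives were a pseudocount of 0.1, no filter, a replicate block, quantile normalization, the deposited values of the C3-1-TAg table, and leaving out each library.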

Additional observations from a re-analysis of the deposited data

Results flagged for a closer look

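In C3-1-TAg tumours, the gap of 2 libraries to the rest of their fraction was above Dixon's 95% critical value for a member, which is larger for 4 libraries than for 5. Cd14 in SOX10 high replicate 2 was at 29.4 RPKM, below the other SOX10 high libraries at 82.1 to 108 RPKM, and its gap to the nearest library was 0.789 of the range of the fraction on the log2(RPKM + 1) scale. Ltf in SOX10 low replicate 2 was at 247 RPKM, above the other SOX10 low libraries at 4.10 to 6.39 RPKM, with a gap of 0.904 of the range. Cd14 in SOX10 low replicate 1, at 588 RPKM against 26.6 to 46.5 RPKM in the other SOX10 low libraries, had a gap of 0.822 of the range, under the value for 4 libraries. Of the 20 sets of libraries examined in this way (10 genes in 2 fractions), chance alone flags about 1 in 20.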

How the results depend on the processing

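Among the members in PY230 cells, 225 values kept their direction and their side of the threshold under an alternative, 41 lost the call, 3 gained it and 1 reversed. Without the filter, the called members numbered 4 in luminal SOX10 high against low and 3 in basal against luminal SOX10 high cells, and the called related genes numbered 21 in luminal SOX10 high against low cells. The cause was not tested. Leaving out each library in turn gave 3 to 7 called members in luminal SOX10 high against low, 3 to 7 in basal against luminal SOX10 high and 7 to 8 in basal SOX10 high against luminal SOX10 low cells. It gave 15 to 36, 28 to 40 and 34 to 55 called related genes in the same comparisons. In the normal table it gave 24 to 49 called related genes in basal cells against fMaSC, 31 to 52 in luminal progenitors against fMaSC, 31 to 47 in mature luminal cells against fMaSC, 23 to 38 in luminal progenitors against basal cells, 23 to 47 in mature luminal against basal cells and 18 to 42 in luminal progenitors against mature luminal cells.

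In C3-1-TAg cells it gave 0 to 1 members with an exact permutation p under 0.05, Wfdc2 without SOX10 high replicate 1 and Lcn2 without SOX10 high replicate 2. The sign of an uncalled difference reversed for C3 in basal SOX10 high against luminal SOX10 low PY230 cells (between -0.062 without luminal SOX10 low replicate 2 and 0.125 without replicate 1). In C3-1-TAg cells it reversed for Lgals3 (-0.197 without SOX10 high replicate 3, up to 0.355 without SOX10 high replicate 5) and for Cd14 (-0.004 without SOX10 high replicate 4, and -0.04, -0.302 and -0.299 without SOX10 low replicates 2, 3 and 4, up to 1.171 without SOX10 low replicate 1).

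Deviations of libraries with the same replicate number correlated between 0 and 0.221 in the normal, -0.265 and 0.295 in the PY230 and -0.337 and 0.203 in the C3-1-TAg table, so the numbers were not taken to pair them. With the replicate block 6 members were called in luminal SOX10 high against low, 7 in basal against luminal SOX10 high and 8 in basal SOX10 high against luminal SOX10 low cells. The called related genes then numbered 34, 42 and 49 in PY230 cells, 31 to 44 in the normal comparisons and 0 in C3-1-TAg cells. With 2 libraries per group, the tests of normal and PY230 cells rest on a spread estimated across groups, and the unknown depth leaves values under 1 RPKM undetermined.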
